A study of Mus musculus with 6 samples.

Results

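Glycogen is the store of glucose in liver, and the 9 genes described here encode the enzymes that build and break it and the proteins that switch those enzymes on and off. They were chosen by name, with earlier results of these data known: Gys2, Gyg, Ugp2, Gbe1, Pygl, Ppp1r3b, Ppp1r3c, Ppp1r3g and Phka2. All 9 were found among the 55471 gene identifiers of the count tables, and all 9 were among the 13812 genes with enough counts to test. The libraries came from the liver of 6 wild-type male C57BL/6J mice, a common inbred strain, with 3 mice fasted for 4 h and 3 fasted for 16 h. The labels give no other treatment or allele. The age of the mice and the hour at which tissue was taken are not stated in the labels. The 4 h group is itself fasted, so the comparison is between a short and a long fast and not between fed and fasted liver.

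In glycogen synthesis, glucose phosphate is turned into UDP-glucose, glycogenin lays down a primer, glycogen synthase lengthens the chain and the branching enzyme adds side chains. In breakdown, glycogen phosphorylase cuts glucose units off the chain ends. Glucagon and adrenaline act through protein kinases, among them phosphorylase kinase, which turn phosphorylase on and synthase off. Protein phosphatase 1 reverses this where a targeting subunit of the Ppp1r3 family holds it on the glycogen particle. These switches act on the proteins, while the measurements here are of RNA only.

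Library depth lay between 15173653 and 26572532 counts assigned to genes. Values are CPM, counts scaled to a common library size with TMM factors. Changes compare the long with the short fast on the log2 scale, with the SE of edgeR's quasi-likelihood fit, and a gene is called at an adjusted p under 0.05. Summed hepatocyte markers (5 of 5 detected) ranged from 81987 to 89107 CPM after 4 h and from 75967 to 86573 CPM after 16 h. The sum is mostly Alb, which overlapped between the groups, as did Apoa1 and Serpina1c. Ttr was lower in each 16 h library (5540 to 6965 CPM after 4 h, 3063 to 3497 CPM after 16 h). Cps1 was higher in each (2512 to 4114 CPM after 4 h, 5135 to 6136 CPM after 16 h). Replicate 3 of the 4 h fast stood apart: its 6 lung epithelium markers summed to 174 CPM, where no other library exceeded 5.47 CPM, and its 6 neutrophil markers to 16.3 CPM, where the others reached 3.55 CPM at most. Results are therefore given with and without it where it changes a call. Red blood cell markers (5 of 5 detected) were lower after 16 h, with sums of 53.4 to 99.1 CPM against 148 to 175 CPM, but of the 5 genes only Alas2 was apart (42.6 to 51.1 against 96.5 to 104 CPM), and the 4 haemoglobin genes overlapped between the groups. The adipose list was higher after 16 h, at 18.5 to 31.1 CPM against 6.57 to 10.7 CPM, nearly all of it Cidec, while Lep was at 0 and no other member exceeded 0.129 CPM. The sums of Kupffer cell markers (5 of 5 detected, 78.5 to 138 and 72.7 to 86 CPM) and skeletal muscle markers (6 of 6 detected, 1.03 to 5.62 and 1.02 to 4.27 CPM) overlapped between the groups. Of the Kupffer cell genes only Timd4 was apart (2.94 to 4.33 CPM after 4 h, 1.51 to 2.30 CPM after 16 h). The part of these cells in the results below was not tested.

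After the longer fast, the RNA of enzymes on both arms of glycogen metabolism was lower, and the 2 most abundant targeting subunits of protein phosphatase 1 were higher. In mean CPM, Ugp2 fell by 42.8%, Pygl fell by 42.5%, Gys2 fell by 34.9% and Gbe1 fell by 31.9%. Ppp1r3g fell 3.74-fold, and Ppp1r3b and Ppp1r3c rose 1.70-fold and 1.86-fold. Gyg and Phka2 did not pass. The count was thus 2 higher, 5 lower and 2 not passing, where 9.17% of all tested genes were called higher and 9.51% lower, or 18.7% in either direction. The median size of the log2 change was 0.76 over the 9 genes and 0.27 over all tested genes, and the signed medians were -0.56 and -0.028. For 8 of the 9 the groups did not overlap, which held for 39.4% of all tested genes. Because the 9 genes were chosen with earlier results of these data known, these shares are a description and not a test. In tissue RNA, fewer cells of a type and less RNA per cell cannot be told apart. Without 4 h replicate 3 only 1 of the 9 was called higher.

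**Figure D1:**
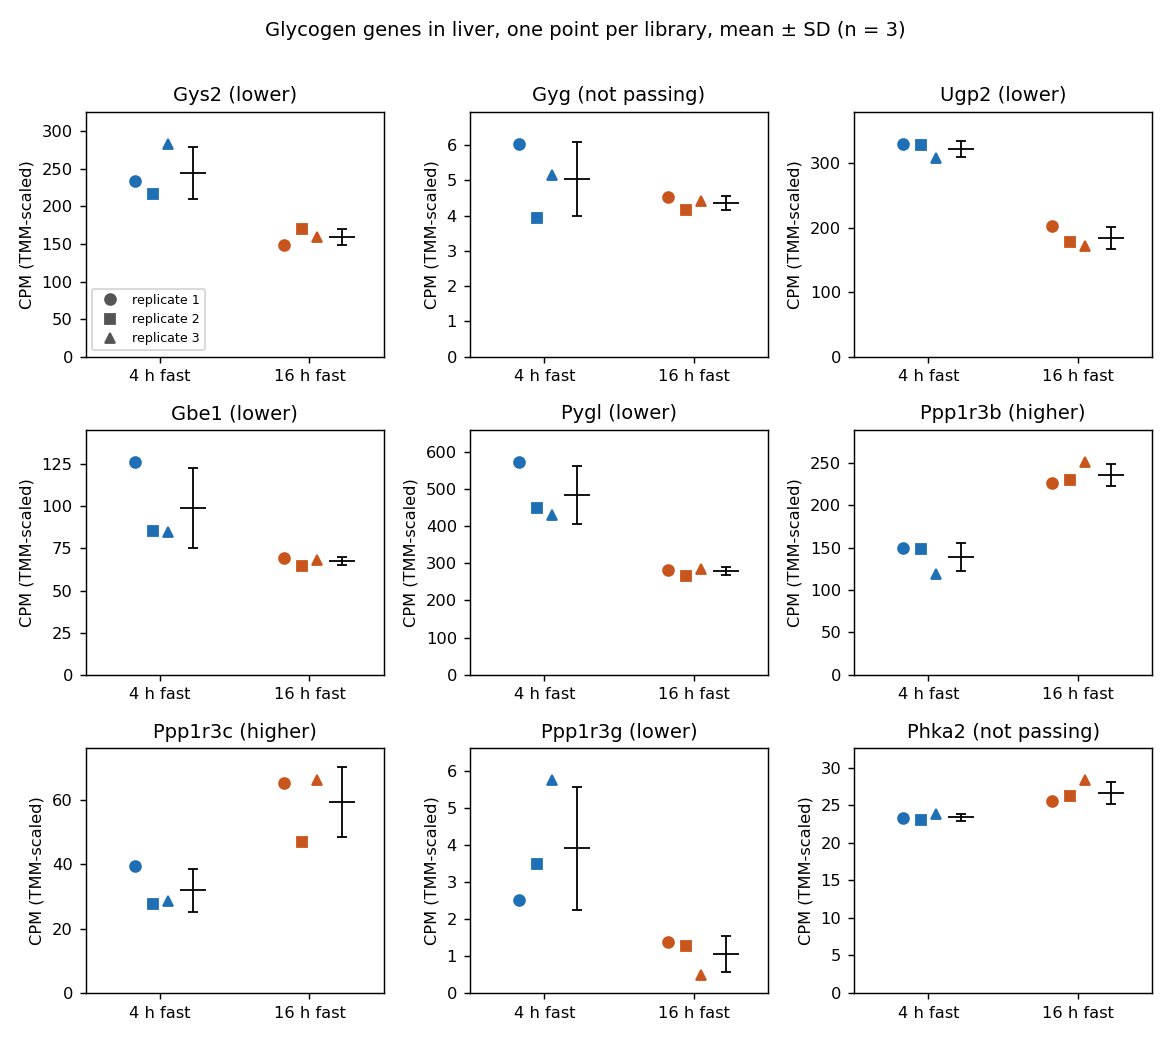
CPM of the 9 glycogen genes in each liver library, with 4 h libraries in blue, 16 h libraries in orange, the replicate number as the symbol, and mean ± SD (n = 3) as the black bar. Gys2, Ugp2, Gbe1, Pygl and Ppp1r3g lie lower after 16 h in each library, Ppp1r3b and Ppp1r3c higher, and Gyg overlaps between the groups.

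Ugp2 makes UDP-glucose, the activated glucose that synthase adds to the chain. It lies on chromosome 11 at 21321138 to 21371201 of GRCm38, on the minus strand. Its level was 329, 327 and 307 CPM after 4 h and 203, 177 and 171 CPM after 16 h, so the lowest short-fast library was well above the highest long-fast one. Ugp2 fell by 0.81 ± 0.11 on the log2 scale (edgeR adjusted p = 6.11e-04, 95% interval -1.05 to -0.57). It had the lowest adjusted p of the 9 genes, and its change stayed between -0.87 and -0.75 whichever library was dropped.

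Gys2, the liver form of glycogen synthase, lies on chromosome 6 at 142422613 to 142473109. The 4 h libraries held 234, 216 and 282 CPM and the 16 h libraries 148, 169 and 159 CPM. The highest of these came from 4 h replicate 3, the library with lung transcripts, and the groups stayed apart without it. Gys2 fell by 0.62 ± 0.12 (edgeR adjusted p = 0.0056, 95% interval -0.89 to -0.35), and by 0.49 without that library (edgeR adjusted p = 0.0024).

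Gbe1, the branching enzyme, lies on chromosome 16 at 70313949 to 70569716. One 4 h library stood above the other two, with 126 CPM in replicate 1 against 85.4 and 84.8 CPM, while the 16 h libraries were close together at 69.0, 64.6 and 68.2 CPM. Gbe1 fell by 0.56 ± 0.15 (edgeR adjusted p = 0.0248, 95% interval -0.88 to -0.23). Without 4 h replicate 1 the fall was 0.32 and the call was lost (edgeR adjusted p = 0.0846), though the groups still did not overlap. Dropping 16 h replicate 1, 2 or 3 also ended the call (edgeR adjusted p = 0.0727, 0.106 and 0.0839), with the change between -0.56 and -0.52.

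Gyg encodes glycogenin, the protein that primes a new chain, and lies on chromosome 3 at 20122084 to 20155317. It was a low transcript, at 6.03, 3.93 and 5.16 CPM after 4 h and 4.53, 4.15 and 4.40 CPM after 16 h. The long-fast values all lay inside the range of the short-fast ones. Gyg did not pass (-0.22 ± 0.20, edgeR adjusted p = 0.464), and its 95% interval of -0.65 to 0.21 leaves room for a fall as large as that of Gys2.

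Pygl, the liver form of glycogen phosphorylase, was lower after the long fast as well. It lies on chromosome 12 at 70190811 to 70231488 on the minus strand. Its level was 572, 449 and 430 CPM after 4 h and 283, 266 and 286 CPM after 16 h. The spread was wider after the short fast, with a coefficient of variation of 15.9% against 3.80%, and the groups were far apart. Pygl fell by 0.80 ± 0.13 (edgeR adjusted p = 0.0015, 95% interval -1.08 to -0.52), and the change ranged from -0.86 to -0.64 with 1 library dropped.

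A ratio of 2 genes within a library does not depend on how libraries are scaled. The log2 ratio of Gys2 to Pygl counts was -1.29, -1.06 and -0.61 after 4 h and -0.93, -0.65 and -0.84 after 16 h. The groups overlapped, and the means of -0.98 ± 0.35 and -0.81 ± 0.14 (SD, n = 3) differed by 0.18, less than the spread of the short-fast libraries (exact permutation test, 2-sided, p = 0.50, adjusted p = 0.60 over 3 ratios). The smallest p that 3 against 3 libraries can give is 0.10. Dropping single libraries put the difference between 0.023 (4 h replicate 1 dropped) and 0.36 (4 h replicate 3 dropped). The overlap came from 4 h replicate 3, the library with lung transcripts. Without it the groups did not overlap, and the exact permutation test gave the smallest p it can there (2-sided p = 0.10). A shift of the balance between synthase and phosphorylase RNA was thus not resolved with these libraries.

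Phka2 encodes the liver form of the alpha subunit of phosphorylase kinase, the enzyme that activates phosphorylase. It lies on X at 160502166 to 160598878. The libraries held 23.3, 23.0 and 23.8 CPM after 4 h and 25.5, 26.2 and 28.3 CPM after 16 h. Each long-fast value was above each short-fast one, but the difference was small. Phka2 did not pass (0.19 ± 0.10, edgeR adjusted p = 0.225), and its 95% interval of -0.037 to 0.42 excludes a doubling.

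The 3 targeting subunits of protein phosphatase 1 among the genes did not move together. Ppp1r3b, the main hepatic subunit, known as GL, lies on chromosome 8 at 35375739 to 35388139. Its level was 149, 148 and 120 CPM after 4 h and 227, 230 and 251 CPM after 16 h. The lowest value came from 4 h replicate 3, and the groups were clearly separate with or without it. Ppp1r3b rose by 0.76 ± 0.12 (edgeR adjusted p = 0.0013, 95% interval 0.50 to 1.02), and by 0.68 without that library (edgeR adjusted p = 2.59e-04).

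Ppp1r3c encodes PTG, a targeting subunit that also binds synthase and phosphorylase, and lies on chromosome 19 at 36731731 to 36736653 on the minus strand. It was at 39.6, 27.7 and 28.6 CPM after 4 h and at 65.2, 46.9 and 66.2 CPM after 16 h. Replicate 1 was the highest of the 4 h libraries and replicate 2 the lowest of the 16 h ones, and the gap between these 2 was narrow. Ppp1r3c rose by 0.89 ± 0.17 (edgeR adjusted p = 0.0047, 95% interval 0.52 to 1.26). Without 4 h replicate 3 it was 0.83 higher and did not pass (edgeR adjusted p = 0.054).

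Ppp1r3g, a further targeting subunit of liver, lies on chromosome 13 at 35958839 to 35970388 and was the rarest of the 9 transcripts. Its counts were 68, 54 and 110 after 4 h and 31, 21 and 12 after 16 h, or 2.50, 3.48 and 5.74 CPM against 1.38, 1.26 and 0.493 CPM. The highest value was again that of 4 h replicate 3, and no long-fast library reached the lowest short-fast one. Ppp1r3g fell by 1.91 ± 0.41 (edgeR adjusted p = 0.0087, 95% interval -2.82 to -1.02), the largest change among the 9 genes. With 4 h replicate 3 dropped it fell by 1.51 and with 16 h replicate 3 dropped it fell by 1.54, and both times the call was kept (edgeR adjusted p = 0.0154 and 0.0317).

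These subunits were also compared within libraries, from the same counts as above, and such a ratio does not tell which gene of a pair moved. The log2 ratio of Ppp1r3g to Ppp1r3b counts was -5.89, -5.40 and -4.37 after 4 h and -7.34, -7.47 and -8.93 after 16 h, without overlap. The means differed by -2.69, more than 3 times the spread within a group, and the exact permutation test gave the smallest p it can (2-sided p = 0.10, adjusted p = 0.30). The ratio of Ppp1r3c to Ppp1r3b went from -2.13 ± 0.26 to -2.004 ± 0.26 (SD, n = 3), a difference of 0.13 that lies within the spread (exact permutation test, 2-sided, p = 0.60, adjusted p = 0.60). In order of replicate number it was -1.91, -2.42 and -2.06 after 4 h and -1.80, -2.29 and -1.92 after 16 h. Each number was thus slightly higher after 16 h (exact sign-flip test by replicate number, p = 0.25, the smallest that test can give here).

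The sequence before the start site was looked at for the genes in the RefSeq promoter table (GRCm38.p6, 250 bases before to 50 after the start), in which 7 of the 9 genes had a window and Ugp2 had 2. Gys2 and Ppp1r3b had no entry. Each window was searched on both strands for an E-box (CACGTG), the half-site of the cyclic AMP response element (TGACG), a forkhead site (GTAAACA) and the half-site of the glucocorticoid receptor (AGAACA), which are bound by factors known from fasting and feeding. An E-box stood in the windows of Ppp1r3c and Gyg, and 7.15% of all 32851 windows of the table hold one. TGACG stood in those of Ppp1r3g, Pygl and Gyg, against 20.8% of all windows. In Gyg the E-box and TGACG overlap. AGAACA was found only in Phka2 (19% of all windows), and GTAAACA in none of them (3.65%).

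A few of these windows are shown, one for a gene that rose and 2 for genes that fell, as 5′ to 3′ on the strand of the gene with the match in capitals. Positions count back from the RefSeq start site. The E-box of Ppp1r3c begins 104 bases before the start, the match in Pygl 44 bases before it on the opposite strand, and the match in Ppp1r3g 40 bases before it. The stretches of Ppp1r3c (chr19:36736654-36736854, minus strand) and Pygl (chr12:70227684-70227840, minus strand) are those outside annotated exons. That of Ppp1r3c adjoins the annotated gene, while that of Pygl lies inside the GENCODE span of the gene (70190811 to 70231488), which begins farther upstream than the RefSeq start. For Ppp1r3g, where the match lies in an annotated exon inside the span of the gene, only the site is shown (chr13:35967858-35967878, plus strand).
Ppp1r3c: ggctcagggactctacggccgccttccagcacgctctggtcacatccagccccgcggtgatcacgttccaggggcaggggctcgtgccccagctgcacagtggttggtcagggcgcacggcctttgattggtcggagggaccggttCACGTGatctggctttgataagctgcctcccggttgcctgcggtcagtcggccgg
Pygl: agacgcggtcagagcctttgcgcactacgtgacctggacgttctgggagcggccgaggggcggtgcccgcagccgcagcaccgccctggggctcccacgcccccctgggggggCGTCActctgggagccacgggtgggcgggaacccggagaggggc
Ppp1r3g: gaggacctTGACGtgctctag
The matches are a description of the letters, and binding at them was not measured.

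Levels can be roughly compared between genes once divided by exon length, here as CPM per kb over all annotated exons. This length joins the exons of all annotated transcripts, for example 6895 bases for Pygl and 2657 for Gys2. The transcripts made in liver can be shorter, so the order below depends on the annotation. After 4 h the order was Ugp2 (105 ± 3.98 CPM per kb, SD, n = 3), Gys2 (91.8 ± 13.0), Pygl (70.1 ± 11.1), Ppp1r3b (22.4 ± 2.71), Gbe1 (18.5 ± 4.43), Ppp1r3c (11.7 ± 2.44), Phka2 (3.85 ± 0.068), Gyg (2.15 ± 0.45) and Ppp1r3g (1.45 ± 0.62). Of neighbours in this order, Ugp2 and Gys2, Gys2 and Pygl, Ppp1r3b and Gbe1, and Gyg and Ppp1r3g overlapped between libraries. After 16 h Ugp2 and Gys2 were level (59.9 ± 5.49 and 59.8 ± 3.93 CPM per kb), and Ppp1r3b (37.9 ± 2.12) overlapped with Pygl (40.3 ± 1.53). Ppp1r3c (21.8 ± 3.97) now stood above Gbe1 (12.6 ± 0.44) in every library. Phka2 (4.40 ± 0.24), Gyg (1.86 ± 0.082) and Ppp1r3g (0.388 ± 0.179) came last and did not overlap with their neighbours.

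**Figure D2:**
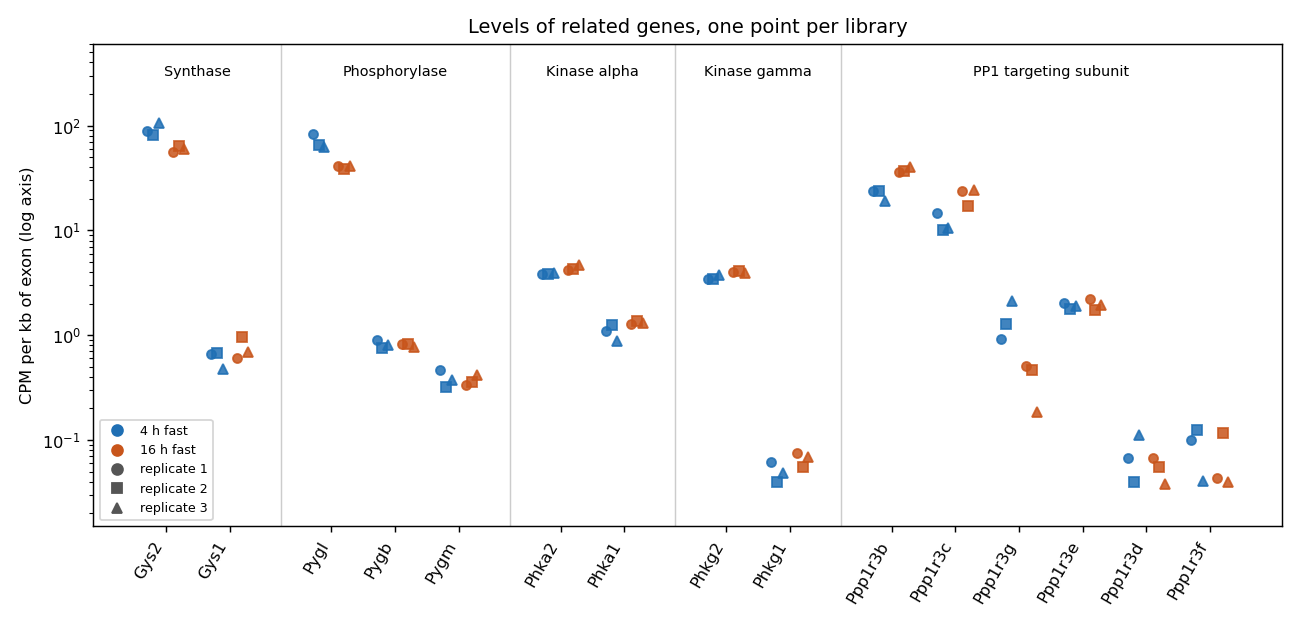
CPM per kb of exon on a log axis for related genes of synthase, phosphorylase, the alpha and gamma subunits of phosphorylase kinase and the targeting subunits of protein phosphatase 1 (PP1), one point per library, blue for 4 h and orange for 16 h. Gys2 and Pygl lie far above their muscle and brain relatives in each library, and Ppp1r3g moves from near Ppp1r3e to below it. Ppp1r3a, at 0 in 4 of the 6 libraries, is not drawn.

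The liver forms of synthase and phosphorylase made up nearly all RNA of their families, and the other members of these families did not pass the test. Gys2 was 99.3% ± 0.20 of synthase RNA per kb after 4 h and 98.8% ± 0.23 after 16 h (SD, n = 3), the rest being the muscle form Gys1 (2.90 ± 0.53 and 3.62 ± 0.91 CPM, 0.30 ± 0.24, edgeR adjusted p = 0.41). Pygl was 98.3% ± 0.13 and 97.2% ± 0.12 of phosphorylase RNA per kb. Its brain and muscle relatives Pygb (-0.027 ± 0.18, edgeR adjusted p = 0.938) and Pygm (-0.083 ± 0.30, edgeR adjusted p = 0.874), named after their values were seen, did not pass at 3.94 ± 0.32 and 1.25 ± 0.24 CPM after 4 h. Phka2 shared its family with more of the muscle form, at 78.2% ± 3.4 and 76.9% ± 1.3. Muscle transcripts were scarce, as given above, and their part in Gys1 and Pygm was not tested.

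The summed level of the 7 targeting subunits was 41.6, 37.3 and 33.9 CPM per kb after 4 h and 63.2, 56.6 and 66.9 CPM per kb after 16 h, higher in each long-fast library. Ppp1r3b held 59.4% ± 4.0 of it after 4 h and 61.1% ± 3.9 after 16 h, and Ppp1r3c 31.0% ± 3.8 and 34.9% ± 3.9 (SD, n = 3), so these shares changed by less than or about as much as they vary between libraries. The share of Ppp1r3g went from 3.99% ± 2.08 to 0.637% ± 0.315. Ppp1r3e, named after its values were seen, was at 4.78 ± 0.26 and 4.91 ± 0.59 CPM (0.040 ± 0.17, edgeR adjusted p = 0.898). Its share nonetheless went from 5.09% ± 0.47 to 3.15% ± 0.29, because a share also depends on the summed level. The lower share of Ppp1r3g is therefore read together with its CPM.

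**Figure D3:**
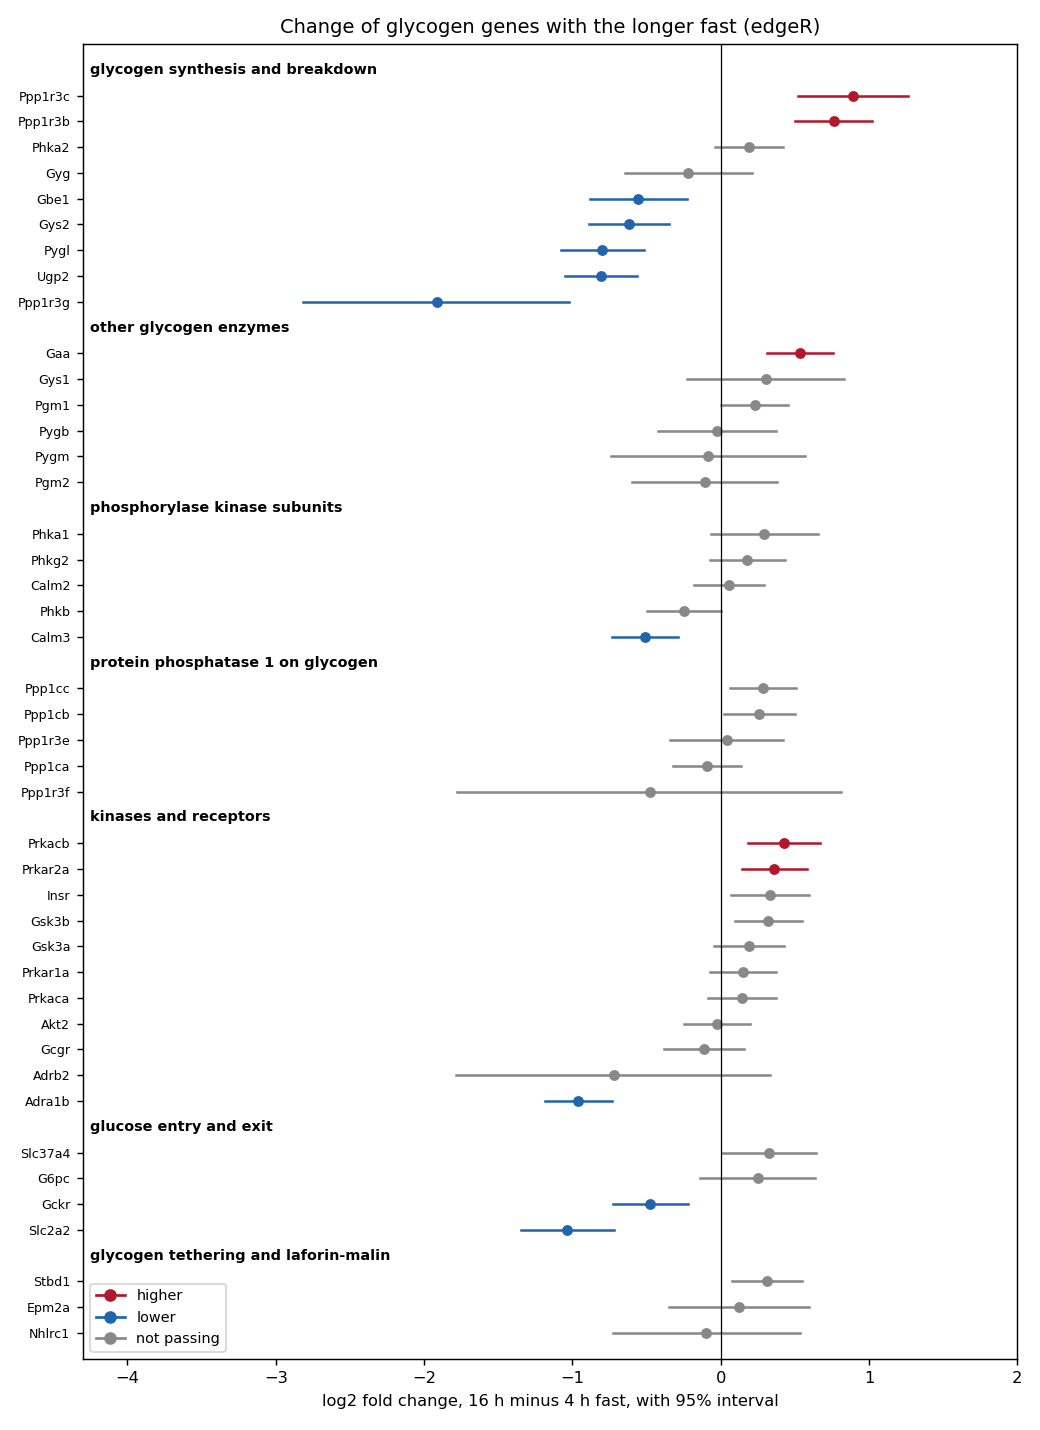
Log2 fold change of 16 h relative to 4 h with its 95% interval for the 9 glycogen genes and the 34 tested genes of 6 related lists, red where higher, blue where lower and grey where the adjusted p was at or over 0.05. Among the related genes drawn, Slc2a2 and Adra1b lie farthest to the left and Gaa farthest to the right.

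Around the 9 genes, 37 further genes of the pathway were listed, and 34 had enough counts to test. Of these 3 were higher, 4 lower and 27 did not pass, or 20.6% called against 18.7% of all genes, and their median log2 change was 0.14. With 4 h replicate 3 dropped, 5 were called higher, and with 16 h replicate 2 or 3 dropped, 1 was. Of the 7 called, 4 kept their call with each single library left out.

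Among other enzymes of glycogen, 1 of 6 rose and 5 did not pass (median 0.10). Gaa, the lysosomal glucosidase that degrades glycogen taken up by lysosomes, rose from 104 ± 5.6 to 150 ± 6.0 CPM (0.53 ± 0.10, edgeR adjusted p = 0.0043). Pgm1, the phosphoglucomutase that links glucose 6-phosphate with glucose 1-phosphate, did not pass (0.23 ± 0.10, edgeR adjusted p = 0.145).

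Of the 5 phosphorylase kinase genes tested 1 was lower and 4 did not pass (median 0.053). The one that fell was Calm3, which encodes calmodulin, the calcium-binding delta subunit, a protein that serves many other enzymes too. Calm3 went from 53.6 ± 3.6 to 37.6 ± 1.4 CPM (-0.51 ± 0.10, edgeR adjusted p = 0.0054). Calm2 averaged 113 ± 7.9 and 118 ± 8.7 CPM without passing (0.053 ± 0.11, edgeR adjusted p = 0.77). The beta subunit Phkb did not pass (-0.25 ± 0.11, edgeR adjusted p = 0.149).

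No gene passed among the 5 tested partners of protein phosphatase 1 on glycogen (edgeR, with 2 of them at an unadjusted p under 0.05, and DESeq2 also called 0). These were the catalytic subunits Ppp1cb (0.26 ± 0.11, edgeR adjusted p = 0.116) and Ppp1cc (0.29 ± 0.10, edgeR adjusted p = 0.0712), both with higher values in each long-fast library. Ppp1ca was at 69.4 ± 4.5 and 65.2 ± 4.4 CPM (-0.091 ± 0.10, edgeR adjusted p = 0.578). Other genes overlap 17.5% of the exon bases of Ppp1cb and 16.5% of those of Ppp1ca.

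Kinases and receptors that act on synthase or phosphorylase kinase had 2 of 11 higher, 1 lower and 8 not passing (median 0.15). Adra1b, the alpha-1B receptor through which adrenaline drives glycogen breakdown in rodent liver, fell from 83.7 ± 5.7 to 43.0 ± 2.1 CPM (-0.96 ± 0.10, edgeR adjusted p = 1.34e-04). The glucagon receptor Gcgr averaged 344 ± 53.0 and 318 ± 7.3 CPM without passing (-0.11 ± 0.12, edgeR adjusted p = 0.56). Of the 4 protein kinase A subunits listed, 2 were higher, the catalytic Prkacb by 0.43 ± 0.11 (edgeR adjusted p = 0.0208) and the regulatory Prkar2a by 0.36 ± 0.10 (edgeR adjusted p = 0.0271). The other catalytic and regulatory subunits, Prkaca (0.15 ± 0.10, edgeR adjusted p = 0.359) and Prkar1a (0.15 ± 0.10, edgeR adjusted p = 0.323), named after their values were seen, did not pass. Prkacb missed the threshold once 16 h replicate 1, 2 or 3 was dropped (edgeR adjusted p = 0.0648, 0.0926 and 0.0531). Prkar2a kept its call only without 4 h replicate 3, with edgeR adjusted p between 0.0607 and 0.0991 without any other library. Gsk3b, a kinase that inactivates synthase, named after its values were seen, was just over the threshold (0.32 ± 0.10, edgeR adjusted p = 0.0507). It passed once 4 h replicate 3 was dropped, at 0.29 (edgeR adjusted p = 0.0389), and likewise once 4 h replicate 1 was, at 0.40 (edgeR adjusted p = 0.0487). The insulin receptor Insr did not pass (0.33 ± 0.12, edgeR adjusted p = 0.0743), though it did with DESeq2 (adjusted p = 0.0494).

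Of the 4 genes of glucose entry and exit 2 fell and 2 did not pass (median -0.11). Slc2a2, the glucose transporter GLUT2, fell from 321 ± 61.2 to 157 ± 11.9 CPM (-1.04 ± 0.14, edgeR adjusted p = 6.66e-04). Gckr fell by 0.47 ± 0.11 (edgeR adjusted p = 0.0151), which did not pass once 4 h replicate 1 or 16 h replicate 2 or 3 was dropped (edgeR adjusted p = 0.0657, 0.0892 and 0.0587). G6pc, the phosphatase that frees glucose for export, overlapped between the groups, at 363, 489 and 427 CPM against 581, 370 and 569 CPM, and missed the threshold (0.25 ± 0.18, edgeR adjusted p = 0.35). Its partner Slc37a4, which carries glucose 6-phosphate into the endoplasmic reticulum, did not pass (0.33 ± 0.15, edgeR adjusted p = 0.139) except without 16 h replicate 1 (edgeR adjusted p = 0.0354).

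The 3 genes of glycogen tethering and quality control had none that passed with edgeR, of which 1 had an unadjusted p under 0.05 and was called by DESeq2. Stbd1, which links glycogen to membranes, was at 89.0 ± 7.9 and 110 ± 6.2 CPM (0.31 ± 0.11, edgeR adjusted p = 0.0665, DESeq2 adjusted p = 0.0408), and reached an edgeR adjusted p of 0.0091 once 4 h replicate 3 was dropped. Epm2a, the glycogen phosphatase laforin, did not pass (0.12 ± 0.22, edgeR adjusted p = 0.724).

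Leaving out single libraries left the sign of each of the 9 changes as it was, and 5 of the 7 calls held throughout, those of Ugp2, Gys2, Pygl, Ppp1r3b and Ppp1r3g. With 4 h replicate 3, the library with lung transcripts, dropped, the log2 changes were -0.83 for Ugp2, -0.86 for Pygl, -0.64 for Gbe1, -0.20 for Gyg and 0.22 for Phka2. The plot of changes with a library left out shows where Gbe1 and Ppp1r3c fall short of the threshold.

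**Figure D4:**
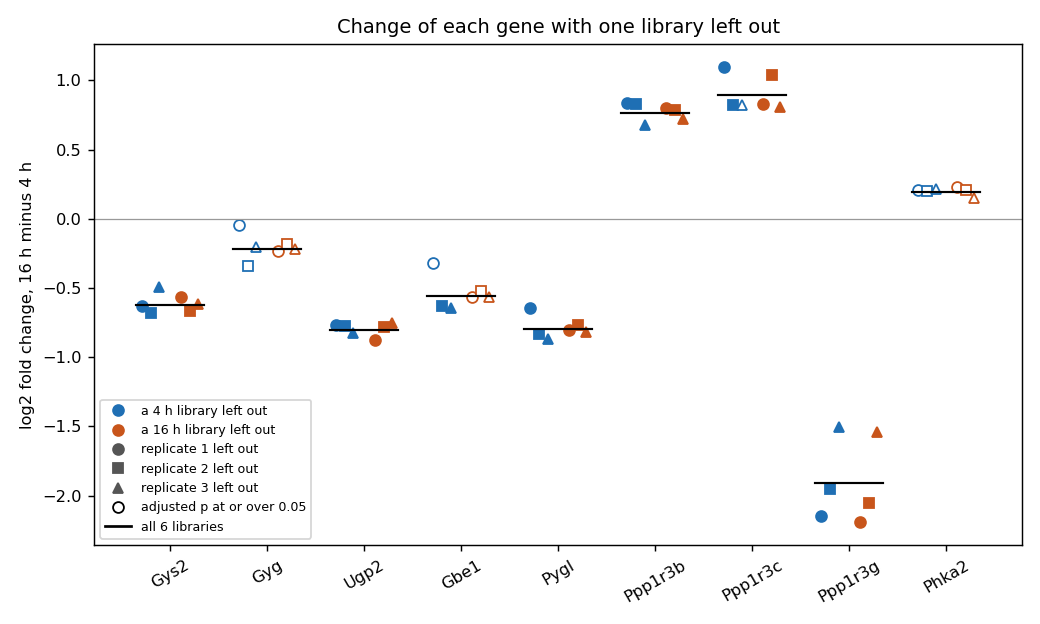
Log2 fold change of each of the 9 genes when 1 library is left out, coloured by the group of that library, with the replicate number as the symbol, open where the adjusted p was at or over 0.05 and a black line at the value of all 6 libraries. Gbe1 moves to -0.32 without 4 h replicate 1, and Ppp1r3g ranges from -2.19 to -1.51.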

How the data were processed

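Per the series' design text and the submitters' processing notes, the authors trimmed reads with Trimmomatic, checked them with FastQC, aligned them with STAR to GRCm38 (mm10) and counted reads per gene with HTSeq, naming DESeq2 for their own comparison. The labels state no versions, annotation release or strand setting. As deposited, the files hold raw counts per Ensembl gene, 1 table per library. HTSeq's summary lines were left out of library sizes and tests (6.44% to 7.14% of tallied reads in no gene, 5.78% to 6.59% in more than 1). Multi-mapped reads were listed at 0, so counts of genes that share sequence with other genes may be incomplete, which was not measured here. 1 library per mouse is assumed from the labels.

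Symbols, positions and exon lengths came from GENCODE M21 (GRCm38), with 55230 of 55471 identifiers found. Genes passing filterByExpr (99.88% of counts) went into edgeR (version 4.0.16, under R 4.3.3) with TMM scaling, a robust quasi-likelihood fit on the fasting group and Benjamini-Hochberg adjustment over 13812 genes. Ratios used a prior count of 0.5. On simulated data the test recovered 79.1% of genes changed by 1 log2 unit and 12.1% of those changed by 0.5, over 13635 genes, with 5.26% false calls. The simulation changed 200 genes and gave every gene the same dispersion. In the data 2580 genes were called, so the recovery there can differ from these rates. Chi-square per degree of freedom between replicates was 17.3 to 68.5, so no library was counted as a duplicate. The 9 genes and the related lists were chosen with earlier results of these data known. All 9 are named. Of each list, called genes, the 2 most abundant others and the 2 with the largest change could be named, and further ones are marked. Some genes of the related lists are not reported here and were left out of the list counts. The alternatives were other scalings, DESeq2 1.42.0, no count filter, a non-robust fit, a replicate block and each library left out. No protein sequences were analysed here.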

Additional observations from a re-analysis of the deposited data

How the results depend on the processing

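Of the 9 glycogen genes, 2 were called higher and 5 lower under RLE, upper-quartile and plain scaling, DESeq2, no count filter, the fit with robust off and the replicate block, and these were the same 7 genes each time. With single libraries left out, 1 to 2 were higher and 4 to 5 lower. Over all tested genes the single-library counts ran from 671 to 1594 higher and from 696 to 1393 lower, against 1267 and 1313. Pathway genes called higher numbered 1 to 5 with single libraries left out and 6 with DESeq2, against 3, the additions with DESeq2 being Gsk3b, Insr and Stbd1. Gsk3b also passed with RLE factors and with robust off (edgeR adjusted p = 0.0454 and 0.0491), and Insr with no count filter and with the replicate block (edgeR adjusted p = 0.0466 and 0.0441). The cause was not tested. Whether libraries of the same replicate number share more than a label was not settled. Correlations of deviations between libraries of the same number were 0.088, 0.093 and 0.045. Those of the other pairs ran from -0.138 to 0.066, the highest being that of 16 h replicate 3 with 4 h replicate 1. The replicate block gave 1352 higher and 1396 lower genes. For the Gys2 to Pygl ratio the block cannot move the difference of 0.18, since equal groups give the same mean either way (exact sign-flip test, p = 0.50). With 3 livers a group, changes of Gyg and Ppp1r3g rest on few counts, and changes of 0.5 log2 units were often missed in the simulation.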
